A study of Mus musculus with 4 samples.

Results

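Tumour necrosis factor (TNF) superfamily ligands are cytokines that T cells display on their membrane or shed, and that pass signals to neighbouring cells through a matching family of receptors. Engaged receptors recruit TRAF adaptors and switch on NF-kappa B, or, for receptors with a death domain, start apoptosis. In tumours these ligands carry cytotoxicity (TNF, FAS ligand, TRAIL), lymphoid organisation (lymphotoxins, LIGHT) and help to antigen-presenting cells (CD40 ligand). The 10 ligand genes followed here were Tnf, Lta, Ltb, Tnfsf8, Tnfsf9, Tnfsf10, Tnfsf11, Tnfsf14, Fasl and Cd40lg. They were chosen as a named family of T cell ligands, with earlier results of these data known. All 10 had a row in the deposited table of 21146 genes.

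The values came from RNA sequencing of T cells isolated from tumours of C57BL/6 mice 21 days after the tumour was inoculated, in 2 libraries from HPK1-/- mice and 2 from wild-type (WT) mice. HPK1, encoded by Map4k1, is a kinase of blood cells that restrains T cell receptor signalling. The labels named neither the tumour, the gate that isolated the T cells, the allele, nor the animals behind each library, so the p-values reflect library-to-library spread alone and that spread may be technical. The unit is FPKM, fragments per kilobase of transcript scaled for library depth, which is a level per transcript length. Map4k1 itself was at 20.6 and 26.5 FPKM in the HPK1-/- libraries and at 48.9 and 41.1 FPKM in the WT libraries. It was lower by 0.91 on the log2 scale (limma adjusted p = 0.0134, and 0.0634 without HPK1-/- replicate 1), so the libraries labelled HPK1-/- still held its transcript. Between 11609 and 11825 genes per library reached 1 FPKM. Steps between low values put the fragment scale of the libraries at about 20000000 to 23200000, sought within a set range. That scale may differ from a library's own fragment number, since the scaling option is not given. T cell markers were abundant: the 3 Cd3 genes averaged 208 and 202 FPKM in HPK1-/- libraries and 233 and 245 FPKM in WT libraries. Cd8a was at 184 and 189 FPKM in HPK1-/- libraries against 208 and 212 FPKM in WT libraries. Cd8b1 went the other way, at 198 and 204 FPKM in HPK1-/- libraries against 174 and 173 FPKM in WT libraries. Limma tests, two-sided, were run on log2(FPKM + 1) over the 11947 genes that reached 1 FPKM in 2 or more libraries, with Benjamini-Hochberg adjustment over all of them and a threshold of 0.05.

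Of the 10 ligand genes, 5 fell in the HPK1-/- libraries and none rose. Those that fell were Tnfsf11, Tnfsf14, Fasl, Tnfsf9 and Tnf, in order of fold change, and all 5 kept that direction under the 3 other scalings of the libraries. Fewer cells of a type and less RNA per cell cannot be told apart in such bulk libraries. The lymphotoxin genes Lta and Ltb, Tnfsf8 and Tnfsf10 were not called, and Cd40lg missed the threshold. Among all tested genes, 28.4% were called, 13.0% as lower and 15.4% as higher, so 5 lower of 10 stands beside a background of 13.0% and 0 higher beside 15.4%. The ligands were chosen with earlier results of these data known, so these shares describe the list and do not test it. The median log2 fold change was -0.36 over the 10 ligands and 0.04 over all tested genes. At an unadjusted limma p under 0.05, 6 ligand genes were lower and 0 were higher, beside 43.2% of all tested genes in either direction; the sixth was Cd40lg. Scaling the libraries to equal FPKM totals moved the median of all genes by 0.14, left 3 ligands called lower and 0 called higher, and made 75.3% of all calls higher in place of 54.2%. Without HPK1-/- replicate 1 none of the 10 ligands was called, and without HPK1-/- replicate 2, WT replicate 1 and WT replicate 2 the counts were 1, 3 and 4. The genotypes did not overlap in 7 of the 10 ligand genes, against 70.0% of all tested genes. Cd40lg passed the filter on low values only through its WT libraries, while the other 9 were at 1 FPKM or more in all 4 libraries.

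**Figure D1:**
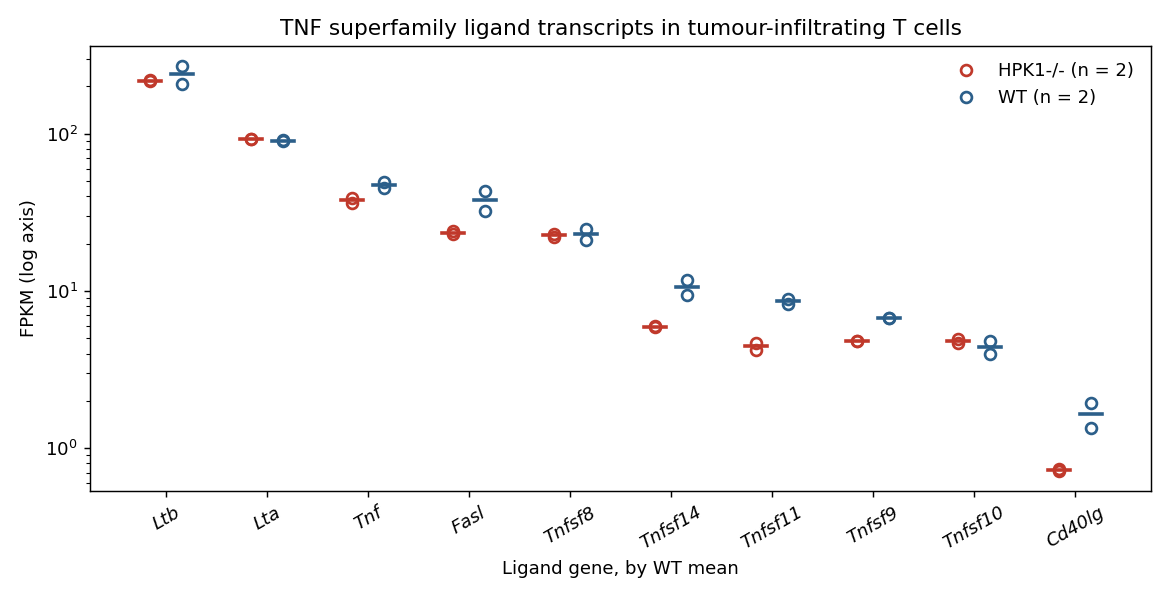
FPKM of the 10 ligand genes on a log axis, HPK1-/- libraries left of WT libraries for each gene; circles are single libraries and bars are the mean of 2. Levels span from 0.72 FPKM (Cd40lg in HPK1-/-) to 269 FPKM (Ltb in WT), and the genotypes separate for Tnfsf14, Tnfsf11, Tnfsf9 and Fasl but lie close together for Lta and Tnfsf8.

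Levels differed far more between ligands than between genotypes. In HPK1-/- libraries the order was Ltb, Lta, Tnf, Fasl, Tnfsf8, Tnfsf14, Tnfsf9, Tnfsf10, Tnfsf11 and Cd40lg, and the neighbours Fasl and Tnfsf8, and Tnfsf9 and Tnfsf10, overlapped in FPKM. In WT libraries the order was Ltb, Lta, Tnf, Fasl, Tnfsf8, Tnfsf14, Tnfsf11, Tnfsf9, Tnfsf10 and Cd40lg, with no overlap between neighbours. Tnfsf11 thus ranked ninth by mean FPKM in HPK1-/- libraries, below Tnfsf9 and Tnfsf10, and seventh in WT libraries, above both. The summed level of the 10 genes was 416 and 415 FPKM in HPK1-/- libraries, against 492 and 447 FPKM in WT libraries. Ltb made up 52.9% and 52.1% of that sum in HPK1-/- libraries, against 54.8% and 46.7% in WT libraries. Without Ltb the sum was 196 and 199 FPKM in HPK1-/- libraries, against 222 and 239 FPKM in WT libraries. Without Lta and Ltb the other 8 ligands summed to 103 and 106 FPKM in HPK1-/- libraries, against 132 and 148 FPKM in WT libraries.

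The soluble and membrane cytokines of the TNF and lymphotoxin locus came first by level. Tnf, Lta and Ltb sit side by side on chromosome 17 (GRCm38), with 1157 bases between Tnf (35199381 to 35202007, minus strand) and Lta (35203165 to 35205351, minus strand), 3060 bases between Tnf and Ltb (35194439 to 35196320, plus strand), and no protein-coding gene in either gap. Tnf encodes the family's founding inflammatory cytokine, and was at 36.3 and 39.0 FPKM in HPK1-/- libraries and at 45.2 and 49.2 FPKM in WT libraries. Both HPK1-/- libraries were below both WT libraries. Its log2 fold change was -0.32 (SE 0.09, 95% interval -0.54 to -0.10, limma adjusted p = 0.049). That call passed under 3 of 12 other settings and was lost when any single library was left out, with adjusted p between 0.0527 and 0.285.

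Lta encodes lymphotoxin alpha, which is secreted as a homotrimer that binds TNF receptors or joins lymphotoxin beta on the membrane. It was at 92.51 and 92.49 FPKM in HPK1-/- libraries and at 90.1 and 90.9 FPKM in WT libraries. The values were all but equal, with a log2 fold change of 0.03 (95% interval -0.15 to 0.21, limma adjusted p = 0.77). Ltb encodes the membrane anchor of the lymphotoxin heterotrimer. It was at 220.1 and 216 FPKM in HPK1-/- libraries and at 269 and 209 FPKM in WT libraries. The WT values lay on both sides of the HPK1-/- values, and the log2 fold change of -0.12 (95% interval -0.45 to 0.21, limma adjusted p = 0.524) became -0.30 (adjusted p = 0.0458) without WT replicate 2 and 0.06 (adjusted p = 0.535) without WT replicate 1.

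Within each library, the ratio of Tnf to Lta FPKM is unchanged by any single scaling factor per library. That ratio was 0.392 and 0.421 in HPK1-/- libraries, against 0.502 and 0.541 in WT libraries. It was lower in both HPK1-/- libraries, by 0.36 on the log2 scale (two-sided exact permutation p = 0.333, the smallest that 2 libraries against 2 allow). The ratio of Ltb to Lta was 2.38 and 2.34 in HPK1-/- libraries, against 2.99 and 2.30 in WT libraries, where the WT libraries differed more from each other than the genotypes did.

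The transcripts of the neighbours Tnf and Lta also differ in their AU-rich elements, sequences of the 3' UTR that bind proteins which speed mRNA decay and limit translation. They are shown because Tnf was called lower and its neighbour was not. The nonamer TTATTTATT, searched on the transcript strand in the longest complete coding transcript of each gene (GENCODE M21), occurred 5 times in the 764-base 3' UTR of Tnf and 1 time in the 572-base 3' UTR of Lta, overlapping copies included. None of the other 8 ligands held it. Among tested genes with a 3' UTR, 7.96% of 10358 held at least 1 copy. The shorter pentamer ATTTA was not particular to this pair. It occurred 8 times in Tnf, 3 in Lta, 10 in Tnfsf8, 8 in Tnfsf10 and 6 in Tnfsf11. The 3' UTRs of Tnfsf8 and Tnfsf10 were longer, at 2799 and 3998 bases. In Ltb, Tnfsf9, Tnfsf14, Fasl and Cd40lg the pentamer occurred 0 to 2 times. The 30 bases richest in the nonamer, with the nonamer in capitals, lie at chr17:35199679-35199708 (Tnf, minus strand) and chr17:35203404-35203433 (Lta, minus strand) of GRCm38:
Tnf: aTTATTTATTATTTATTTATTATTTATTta
Lta: tatggagagaaaagttaagTTATTTATTta

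Several genes for proteins that bind AU-rich elements or stem loops of such mRNAs were lower in the HPK1-/- libraries. Of 13 tested genes for such proteins and other regulators of mRNA decay, including the kinase genes Mapkapk2 and Map3k8, 4 fell and 2 rose. Their median log2 fold change was -0.09. Among all tested genes, 13.0% were called lower and 15.4% higher. Zfp36l1, which encodes a decay factor of the tristetraprolin family, was at 19.2 and 18.3 FPKM in HPK1-/- libraries against 28.6 and 27.7 FPKM in WT libraries (log2 fold change -0.56, limma adjusted p = 0.0107). Its relative Zfp36l2 was at 82.1 and 84.5 FPKM against 113 and 104 FPKM (limma adjusted p = 0.0262). Zc3h12a, which encodes the RNase regnase-1, was at 5.87 and 5.28 FPKM against 8.82 and 9.91 FPKM (limma adjusted p = 0.0161), and the related Zc3h12d at 3.54 and 3.02 FPKM against 6.32 and 7.05 FPKM (limma adjusted p = 0.0113). Zfp36, for tristetraprolin itself, which binds the Tnf element, was at 16.2 and 18.0 FPKM against 22.3 and 20.7 FPKM and missed the threshold (limma adjusted p = 0.0634). Khsrp and Tia1, named after their values were seen, rose, with log2 fold changes of 0.32 and 0.40 (limma adjusted p = 0.0351 and 0.0442). Without HPK1-/- replicate 1, or without HPK1-/- replicate 2, none of the 13 was called in either direction, and the 2 rises were also lost without WT replicate 1.

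The ligands of death receptors parted ways. Fasl encodes FAS ligand, which cytotoxic T cells use to kill FAS-bearing targets, and lies on chromosome 1 (161780689 to 161788495, minus strand). It was at 24.0 and 23.1 FPKM in HPK1-/- libraries and at 32.2 and 43.5 FPKM in WT libraries. Both HPK1-/- libraries were below both WT libraries, and the WT libraries stood well apart from each other. Its mean was 23.5 ± 0.633 FPKM in HPK1-/- and 37.9 ± 7.95 FPKM in WT (SD, n = 2 each), a log2 fold change of -0.65 (SE 0.15, limma adjusted p = 0.0313). The call was lost without HPK1-/- replicate 1 (limma adjusted p = 0.116) and without HPK1-/- replicate 2 (adjusted p = 0.117). Leaving out WT replicate 1 gave -0.86 and leaving out WT replicate 2 gave -0.44, both called.

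Tnfsf10 encodes TRAIL, which induces apoptosis through a single death receptor in mice, and lies on chromosome 3. It was at 4.98 and 4.67 FPKM in HPK1-/- libraries and at 4.79 and 3.97 FPKM in WT libraries. The genotypes overlapped, and the log2 fold change was 0.12 (95% interval -0.21 to 0.45, limma adjusted p = 0.529). Within a library, Fasl FPKM was 4.81 and 4.95 times that of Tnfsf10 in HPK1-/- libraries, against 6.74 and 10.9 times in WT libraries.

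Ligands of the RANK and herpesvirus entry mediator receptors were among those that fell. Tnfsf11 encodes RANKL, the cytokine that drives osteoclast formation and dendritic cell survival, and lies on chromosome 14 (78277445 to 78308043, minus strand). It was at 4.22 and 4.65 FPKM in HPK1-/- libraries and at 8.92 and 8.23 FPKM in WT libraries. Its HPK1-/- mean was 0.517 times the WT mean, and its log2 fold change of -0.82 (SE 0.11, 95% interval -1.10 to -0.53, limma adjusted p = 0.00926) was the largest among the 5 called ligands with all 4 libraries on this scale. Fasl had the larger fold change without WT replicate 1 (-0.86 against -0.76) and Tnfsf14 without WT replicate 2 (-0.88 against -0.87). On the approximate fragment scale the transcript had 187 and 213 fragments in HPK1-/- libraries, against 379 and 325 in WT libraries. Its call was kept under 10 of 12 other settings and was lost without HPK1-/- replicate 1 (limma adjusted p = 0.0659) and with no filter on low values (adjusted p = 0.0503).

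Tnfsf14 encodes LIGHT, a costimulatory ligand that T cells express after activation, and lies on chromosome 17 (57189492 to 57194177, minus strand). It was at 6.00 and 5.89 FPKM in HPK1-/- libraries and at 11.8 and 9.46 FPKM in WT libraries. The HPK1-/- libraries were close to each other and below both WT libraries, with a log2 fold change of -0.74 (SE 0.13, limma adjusted p = 0.0164). Leaving out HPK1-/- replicate 1 or HPK1-/- replicate 2 ended the call (limma adjusted p = 0.0851 and 0.0771).

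Costimulatory ligands of activated lymphocytes were mixed. Tnfsf9 encodes the CD137 ligand, which is better known on antigen-presenting cells but also made by activated T cells. It was at 4.82 and 4.84 FPKM in HPK1-/- libraries and at 6.73 and 6.72 FPKM in WT libraries. The libraries of a genotype were nearly equal and the genotypes did not overlap, with a log2 fold change of -0.41 (SE 0.10, limma adjusted p = 0.0408). On the approximate fragment scale these were 111 and 116 fragments in HPK1-/- libraries, against 149 and 138 in WT libraries. The call passed under 5 of 12 other settings and was lost without any 1 library, with adjusted p between 0.0742 and 0.209. The 5' end of Tnfsf9 overlaps the antisense lincRNA Gm11110, which was at 1.95 and 1.83 FPKM in HPK1-/- libraries and at 2.00 and 3.20 FPKM in WT libraries, and the strand setting of the counting is not given in the sources used here.

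Tnfsf8 encodes the CD30 ligand. It was at 22.1 and 23.2 FPKM in HPK1-/- libraries and at 21.2 and 24.7 FPKM in WT libraries. The HPK1-/- values lay between the WT values, and the log2 fold change was -0.02 (95% interval -0.28 to 0.25, limma adjusted p = 0.923). Cd40lg, on the X chromosome, encodes the ligand by which CD4 helper cells license dendritic and B cells. It was at 0.720 and 0.740 FPKM in HPK1-/- libraries and at 1.35 and 1.94 FPKM in WT libraries. Both HPK1-/- libraries were below both WT libraries, but the log2 fold change of -0.60 (95% interval -1.06 to -0.15) missed the threshold (limma adjusted p = 0.0578). These values rest on about 16 and 17 fragments in HPK1-/- libraries, against 28.7 and 38.5 in WT libraries, and the log2 fold change was -1.05 with a pseudocount of 0.1. The ratio of its HPK1-/- to its WT mean, 0.443, was the lowest of the 10 ligands.

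**Figure D2:**
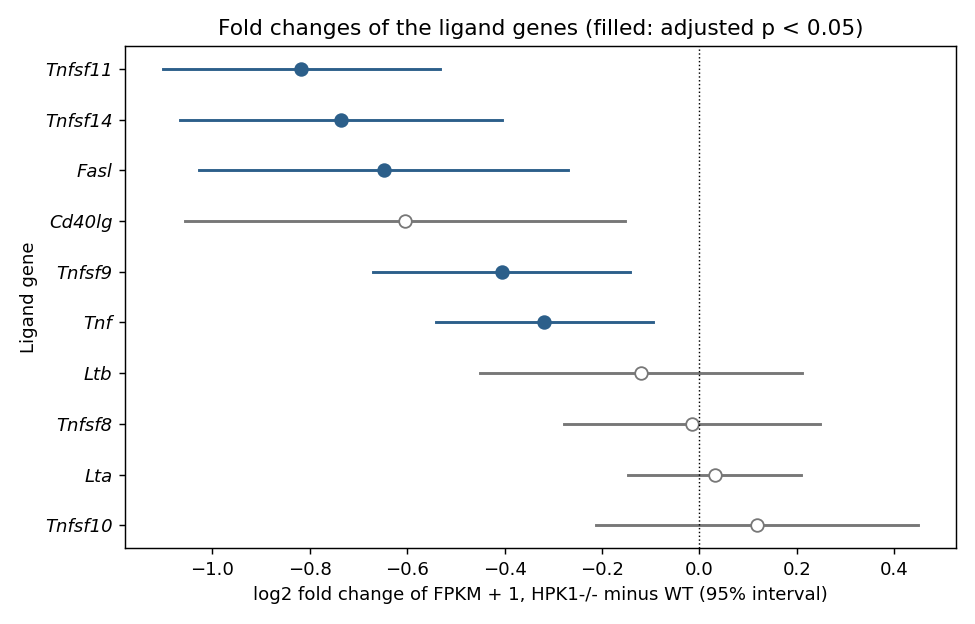
Log2 fold change of FPKM + 1, HPK1-/- minus WT, for the 10 ligand genes with 95% intervals from limma; filled points passed an adjusted p of 0.05. The 5 filled points run from -0.82 for Tnfsf11 to -0.32 for Tnf, and Tnfsf8 and Lta sit at -0.02 and 0.03.

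Promoter sequence is shown for Tnfsf11, Tnfsf14 and Fasl, the called ligands with the largest log2(FPKM + 1) fold changes, and for Tnf beside its neighbour Lta. RefSeq windows on GRCm38.p6, from 250 bases before to 50 after the start site, matched 8 of the 10 genes; Tnfsf9 and Cd40lg had no window in that table. Motifs were searched on both strands: TGANTCA for AP-1, GGAAAA for the NFAT core, GGG followed by any 2 bases and TTTCC for NF-kappa B, and TATAAA for the TATA box. Across 32851 windows these were held by 7.81%, 23.4%, 1.63% and 13.6%. Matches stand in capitals below. The windows are chr17:35201958-35202257 (Tnf), chr17:35205302-35205601 (Lta), chr14:78307994-78308293 (Tnfsf11), chr17:57194132-57194431 (Tnfsf14) and chr1:161788446-161788745 (Fasl), all on the minus strand and written 5' to 3' along the gene:
Tnf: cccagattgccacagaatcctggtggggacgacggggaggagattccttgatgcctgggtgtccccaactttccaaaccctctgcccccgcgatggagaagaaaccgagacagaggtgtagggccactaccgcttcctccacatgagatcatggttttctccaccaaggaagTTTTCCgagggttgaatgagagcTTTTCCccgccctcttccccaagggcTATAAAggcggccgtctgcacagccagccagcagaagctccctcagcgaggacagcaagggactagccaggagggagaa
Lta: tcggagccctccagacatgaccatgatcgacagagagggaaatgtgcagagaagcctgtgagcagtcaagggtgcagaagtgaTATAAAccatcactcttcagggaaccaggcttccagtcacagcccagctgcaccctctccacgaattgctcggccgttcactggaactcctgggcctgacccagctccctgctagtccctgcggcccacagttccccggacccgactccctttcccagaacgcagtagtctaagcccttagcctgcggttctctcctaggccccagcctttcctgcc
Tnfsf11: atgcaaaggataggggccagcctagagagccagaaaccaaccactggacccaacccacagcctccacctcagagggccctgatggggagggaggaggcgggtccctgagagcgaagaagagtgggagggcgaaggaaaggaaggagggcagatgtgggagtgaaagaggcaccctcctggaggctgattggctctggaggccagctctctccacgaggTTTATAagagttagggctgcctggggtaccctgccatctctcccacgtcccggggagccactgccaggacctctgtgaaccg
Tnfsf14: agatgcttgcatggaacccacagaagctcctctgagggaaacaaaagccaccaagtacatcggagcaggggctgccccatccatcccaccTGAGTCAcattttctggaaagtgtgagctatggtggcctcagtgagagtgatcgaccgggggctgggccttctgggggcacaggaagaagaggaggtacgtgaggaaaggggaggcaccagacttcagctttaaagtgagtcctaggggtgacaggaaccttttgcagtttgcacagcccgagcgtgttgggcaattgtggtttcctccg
Fasl: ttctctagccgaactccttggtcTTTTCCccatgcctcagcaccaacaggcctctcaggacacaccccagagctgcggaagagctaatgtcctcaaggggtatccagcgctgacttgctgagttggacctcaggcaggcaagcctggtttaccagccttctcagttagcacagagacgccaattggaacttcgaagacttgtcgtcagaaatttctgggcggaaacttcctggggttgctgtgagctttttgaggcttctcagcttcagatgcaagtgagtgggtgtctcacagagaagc

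Tnf held 2 NFAT cores, which began 78 and 55 bases before the start site, and a TATA box that began 29 bases before it. Lta held a TATA match that began 167 bases before its start site and no NFAT core. Tnfsf11 held a TATA match on the opposite strand, printed as TTTATA, that began 32 bases before the start. Tnfsf14 held an AP-1 match that began 160 bases before the start, and Fasl an NFAT core that began 227 bases before it. Among the windows not printed, Ltb held an NF-kappa B match that began 87 bases before the start, and Tnfsf8 and Tnfsf10 held none of the 4 motifs. No motif was held by all 4 ligands that fell and had a window, and these matches are letters in a window, not measured binding.

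Genes for transcription factors that are known to act on such promoters changed in both directions. Of 24 tested members of this list, 11 fell and 2 rose, beside 13.0% lower and 15.4% higher among all tested genes. The median log2 fold change of the 24 was -0.33. Among the 11, Fos passed the filter only through the WT libraries. Egr1, an early growth response factor, was at 4.98 and 5.19 FPKM in HPK1-/- libraries against 31.5 and 30.8 FPKM in WT libraries (limma adjusted p = 0.000324). Its relative Egr3 was at 2.89 and 3.31 FPKM against 11.4 and 10.7 FPKM (limma adjusted p = 0.00242). The AP-1 subunit genes Junb and Jun were at 66.6 and 68.2 FPKM against 226 and 177 FPKM, and at 20.5 and 20.1 FPKM against 40.8 and 38.3 FPKM (limma adjusted p = 0.00302 and 0.00359). The 2 that rose, named after their values were seen, were Nfatc2 and Nfatc3, calcium-regulated factors, with log2 fold changes of 0.52 and 0.47 (limma adjusted p = 0.0149 and 0.0299). Neither was called without HPK1-/- replicate 1 or without HPK1-/- replicate 2, which left 5 and 6 of the list called lower.

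The receptors of these ligands were also measured in the same libraries. Of 13 receptor genes 11 were tested, of which 4 fell, 1 rose and 6 were not called. With equal FPKM totals, 4 of the 11 were called lower and 2 higher. Among all tested genes, 13.0% were called lower and 15.4% higher. Of the 4 that fell, Tnfrsf11b and Cd40 passed the filter only through the WT libraries. Ltbr and Tnfrsf11a were under the filter. Tnfrsf9, for CD137, was the most abundant at 356 and 326 FPKM in HPK1-/- libraries against 625 and 672 FPKM in WT libraries, and both it and its ligand gene fell (log2 fold change of the receptor -0.93, limma adjusted p = 0.00398). Tnfrsf8, for CD30, was at 21.3 and 19.3 FPKM against 34.2 and 34.5 FPKM and fell (limma adjusted p = 0.00704), while its ligand gene Tnfsf8 was not called. Tnfrsf14, for the entry mediator that binds LIGHT, was at 20.8 and 24.8 FPKM against 21.5 and 19.1 FPKM and was not called (95% interval -0.15 to 0.46), while Tnfsf14 fell. Fas was at 6.37 and 8.88 FPKM against 10.95 and 12.3 FPKM and missed the threshold (log2 fold change -0.56, limma adjusted p = 0.0569).

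The TNF receptors themselves were called in neither direction. Tnfrsf1a, the death-domain receptor, was at 21.8 and 19.9 FPKM in HPK1-/- libraries against 17.2 and 15.7 FPKM in WT libraries (log2 fold change 0.33, limma adjusted p = 0.0611). Tnfrsf1b, the receptor typical of T cells, was at 42.8 and 37.9 FPKM against 41.1 and 40.5 FPKM (95% interval -0.25 to 0.21). Ltbr, the lymphotoxin beta receptor of stromal and myeloid cells, stayed at or under 0.140 FPKM in all 4 libraries. Tnfrsf10b, the mouse TRAIL death receptor, was at 7.98 and 9.18 FPKM against 10.96 and 11.55 FPKM (limma adjusted p = 0.0631).

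The decoy receptors behaved differently from each other. Tnfrsf11b encodes osteoprotegerin, the soluble decoy that captures RANKL, and was at 0.642 and 0.403 FPKM in HPK1-/- libraries against 6.89 and 7.29 FPKM in WT libraries (log2 fold change -2.41, limma adjusted p = 0.00132). It passed the filter only through the WT libraries. Tnfsf11 FPKM was 6.58 and 11.6 times that of Tnfrsf11b in HPK1-/- libraries, against 1.30 and 1.13 times in WT libraries, although both genes fell. Tnfrsf11a, for RANK, was at 0.150 and 0.153 FPKM against 0.659 and 0.710 FPKM, under the filter. Tnfrsf22, for a TRAIL decoy of mice, rose, at 7.93 and 8.19 FPKM against 4.30 and 2.63 FPKM (log2 fold change 1.05, limma adjusted p = 0.0189), and its call was lost without HPK1-/- replicate 1 or HPK1-/- replicate 2, with adjusted p up to 0.081. The related neighbour Tnfrsf23 was at 2.54 and 2.07 FPKM against 3.50 and 2.85 FPKM and was not called (limma adjusted p = 0.157); how the authors' counting divided reads between these similar genes is uncertain.

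Cd40, the receptor of antigen-presenting cells, was at 0.0333 and 0.107 FPKM in HPK1-/- libraries against 2.15 and 2.94 FPKM in WT libraries (log2 fold change -1.72, limma adjusted p = 0.00548), and passed the filter only through the WT libraries. Of 6 dendritic cell markers 5 had a row and 1, Batf3, was tested and not called; the 5 summed to 38.9 and 43.0 FPKM in HPK1-/- libraries against 46.8 to 55.5 FPKM in WT libraries, mostly Batf3, which T cells also express. Flt3 was at 0 and 0.0379 FPKM against 0.821 and 1.31 FPKM. Of 7 macrophage and monocyte markers 1, Cd68, was tested and not called; the 7 summed to 2.72 to 4.31 FPKM in HPK1-/- libraries against 4.35 to 4.82 FPKM in WT libraries, with Csf1r at practically 0 in all 4. Of 5 B cell markers 2 had a row, and these summed to 4.55 to 4.96 FPKM in HPK1-/- libraries and 3.93 to 4.49 FPKM in WT libraries. The part of such cells in the Cd40 and Tnfsf9 values was not tested.

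**Figure D3:**
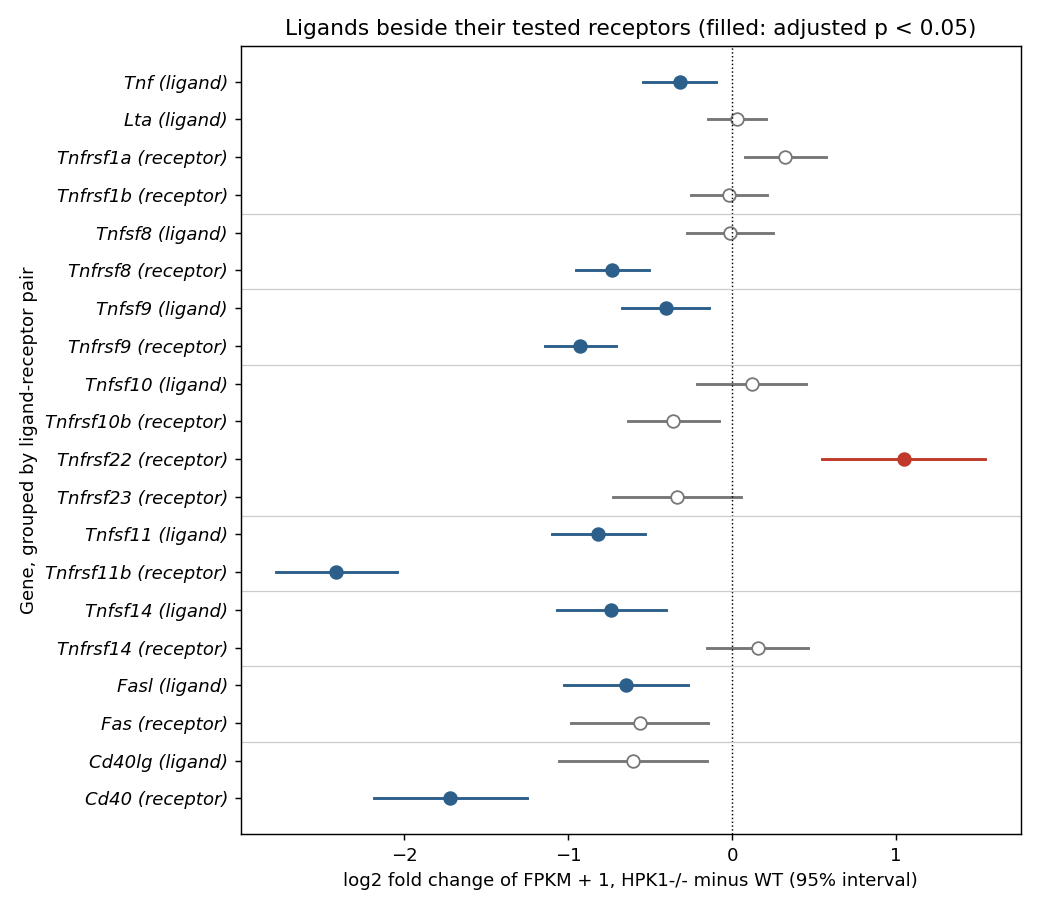
Log2 fold change of FPKM + 1, HPK1-/- minus WT, for 9 of the ligand genes above their tested receptor genes, with 95% intervals; filled points passed an adjusted p of 0.05, blue lower and red higher in HPK1-/-. Ltb is left out because Ltbr was not tested, and receptors run from -2.41 for Tnfrsf11b to 1.05 for Tnfrsf22.

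Other members of the ligand family were mostly at or near 0, with Tnfsf4 as the exception. Tnfsf4, for the OX40 ligand, was at 3.03 and 3.50 FPKM in HPK1-/- libraries and at 12.7 and 13.6 FPKM in WT libraries, a log2 fold change of -1.73 (SE 0.12, limma adjusted p = 0.00179) that exceeded the fold change of any of the 10 ligands. It lies 362 kb from Fasl on chromosome 1, with Tnfsf18, at or under 0.0476 FPKM in every library, between them. Cd70, for the CD27 ligand, lies between Tnfsf9 and Tnfsf14 on chromosome 17, 38.2 kb from the first and 39.7 kb from the second. It was listed at 0 in both HPK1-/- libraries and at 0.547 and 1.02 FPKM in WT libraries, under the filter. Tnfsf9, Cd70 and Tnfsf14 were thus each lower in both HPK1-/- libraries, though Cd70 was not tested. The WT values of Cd70 rested on about 6.8 and 11.8 fragments. Among all tested genes, the genotypes did not overlap in 70.0%, counting either direction. Whether these neighbours changed together was not tested. The remaining ligands Tnfsf12, Tnfsf13, Tnfsf13b, Tnfsf15 and Eda stayed at or under 0.634 FPKM.

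Downstream of the receptors, most genes of the signalling complex were not called. Of 27 tested genes 3 fell and 0 rose, with a median log2 fold change of 0.09, beside 13.0% lower and 15.4% higher among all tested genes. At an unadjusted limma p under 0.05, 4 were lower and 4 higher of the 27, beside 43.2% of all tested genes in either direction, and equal FPKM totals gave 2 called lower and 8 called higher. Tnfaip3, for the ubiquitin-editing enzyme that ends TNF receptor signalling, was at 3.81 and 3.86 FPKM in HPK1-/- libraries against 14.7 and 16.4 FPKM in WT libraries (log2 fold change -1.77, limma adjusted p = 0.00132). Traf1, an adaptor of CD137 and CD30, was at 49.98 and 50.7 FPKM against 111 and 103 FPKM (limma adjusted p = 0.00242). Otulin, for the linear ubiquitin deubiquitinase, was at 55.7 and 55.3 FPKM against 69.6 and 71.8 FPKM (limma adjusted p = 0.0255), a call lost without HPK1-/- replicate 1 or HPK1-/- replicate 2.

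Of 6 tested genes for shedding of membrane ligands, 1 fell and 0 rose, beside 13.0% lower and 15.4% higher among all tested genes. At an unadjusted limma p under 0.05 the counts were the same, beside 43.2% of all tested genes in either direction. Rhbdf2, for the partner that matures the TNF sheddase, was at 17.57 and 16.03 FPKM in HPK1-/- libraries against 23.8 and 21.0 FPKM in WT libraries (limma adjusted p = 0.0445), and lost its call without HPK1-/- replicate 1, HPK1-/- replicate 2 or WT replicate 1 (adjusted p up to 0.222) and with equal FPKM totals. Adam17, the sheddase gene itself, was at 20.4 and 19.0 FPKM against 18.8 and 17.3 FPKM (limma adjusted p = 0.381).

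Markers of T cell subsets moved beside the ligands. The counts below stand beside 13.0% called lower and 15.4% called higher among all tested genes. Of 8 general T cell markers 1 fell and 3 rose, with sums of 1590 to 1661 FPKM in HPK1-/- libraries against 1500 to 1537 FPKM in WT libraries. Of 2 CD8 markers none was called, and they summed to 382 to 393 FPKM in HPK1-/- libraries against 382 to 384 FPKM in WT libraries. Of 4 CD4 helper markers 2 fell, Izumo1r and Tnfrsf4. The 4 summed to 76.8 to 77.6 FPKM in HPK1-/- libraries against 117 to 133 FPKM in WT libraries. Cd4 itself was not called, at 18.0 and 15.6 FPKM in HPK1-/- libraries against 14.9 and 15.1 FPKM in WT libraries. Zbtb7b was not called either (limma adjusted p = 0.0917). Of 6 regulatory T cell markers 3 fell, with sums of 386.5 to 391.7 FPKM against 509.7 to 528.3 FPKM. Most of that sum was Il2ra, at 265 and 261 FPKM in HPK1-/- libraries against 273 and 301 FPKM in WT libraries and not called. Foxp3, the defining factor of regulatory T cells, was at 0.128 and 0.228 FPKM in HPK1-/- libraries against 5.40 and 4.65 FPKM in WT libraries (limma adjusted p = 0.00171), and passed the filter only through the WT libraries. Of 9 markers of NK, gamma delta and innate lymphoid cells 8 had a row and 5 were tested, 4 of which fell, with sums of 99.2 to 106 FPKM against 181 to 183 FPKM. The largest part of those sums was Eomes, at 74.3 and 78.1 FPKM in HPK1-/- libraries against 89.8 and 79.6 FPKM in WT libraries and not called. Ncr1 was at or under 0.0821 FPKM in all 4 libraries. Of the 4 neutrophil and the 6 fibroblast and endothelium markers 1 each was tested and not called, with sums of 1.39 to 1.72 and 13.0 to 13.2 FPKM in HPK1-/- libraries against 2.39 to 2.41 and 13.5 to 19.8 FPKM in WT libraries. The part of these cells in the values of Cd40lg, Tnfsf11, Tnfsf14, Tnfsf4 and Fasl was not tested.

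**Figure D4:**
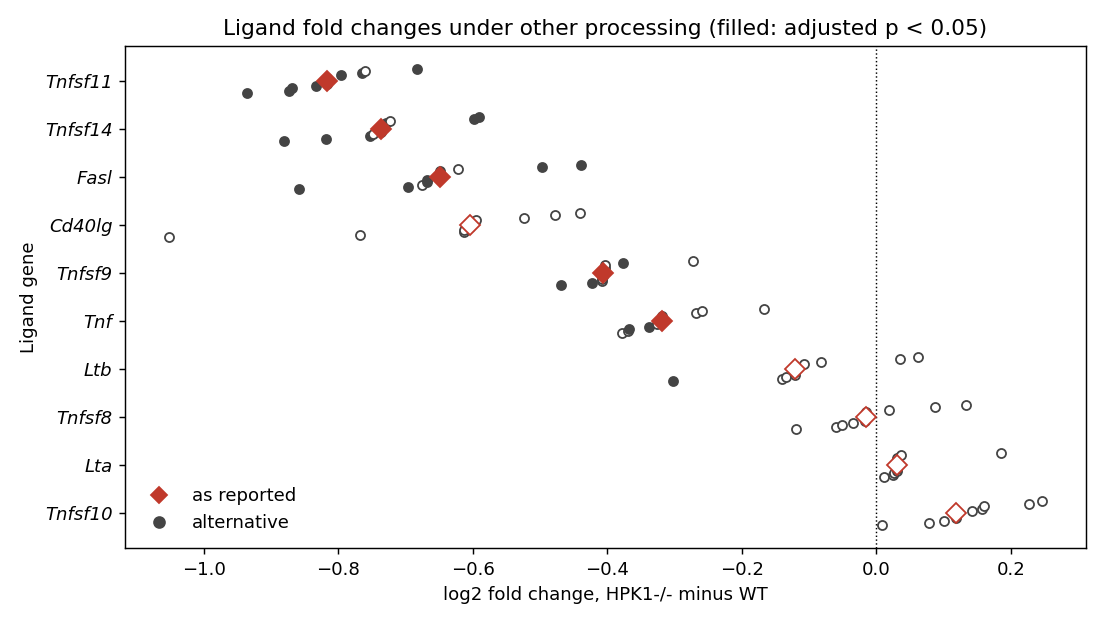
Log2 fold change, HPK1-/- minus WT, of each ligand gene as reported (diamonds) and under 11 or 12 other processing settings (circles); filled marks passed an adjusted p of 0.05. Tnfsf11, Tnfsf14, Fasl, Tnfsf9, Tnf and Cd40lg stay below 0 in all settings run, while Ltb and Tnfsf8 fall on both sides of 0.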

How the data were processed

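RNA sequencing of tumour-infiltrating T cells gave 2 HPK1-/- and 2 WT libraries, with groups and replicate numbers taken from the labels. The authors deposited FPKM values per Ensembl gene and library, made with HISAT and Cuffnorm on GRCm38, per the submitters' processing notes; versions, annotation, strand setting and scaling option are not given in the sources used here. Symbols and positions came from GENCODE M21 for 21011 of 21146 gene IDs. Values were tested as log2(FPKM + 1), HPK1-/- minus WT, with limma 3.58.1 in R 4.3.3 (mean-variance trend, empirical Bayes, residual degrees of freedom 2, prior 3.39), after keeping genes at 1 FPKM or more in 2 of the 4 libraries. On this scale the fold changes of weakly expressed genes come out too small. The test was tried on simulated data with few changed genes, each changed by more than any called ligand. Those data do not check the ligand calls. Approximate fragment numbers came from the steps of low FPKM values, of which 91.9% to 92.8% lay within 0.1 of a whole fragment. The scale and a fragment length of 260 nt were chosen to sharpen those steps. The scale was sought within a set range, so a multiple or fraction of it was not excluded. The fragment numbers carry counting error. Other pseudocounts, filters, scalings, variance models, a replicate block and leaving out each library were tried. The ligands and the other lists were chosen with earlier results of these data known. All 10 ligands, all receptors and other ligands are named, and from each other list up to 4 genes with the lowest p among those called; Zfp36, Adam17, Khsrp, Tia1, Nfatc2, Nfatc3, Fos and the cell type markers given singly were picked beyond that rule. Sequences are RefSeq promoter windows and GENCODE transcripts.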

Additional observations from a re-analysis of the deposited data

How the results depend on the processing

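The number of ligand genes called lower, 5 as reported, was 0 with no filter on low values, 3 with equal FPKM totals and 0 to 4 when 1 library was left out. With the replicate block it was 3, the calls of Tnf and Tnfsf9 being lost (limma adjusted p = 0.0599 and 0.0778); same-numbered libraries did not deviate together (r = -0.03 across 11947 genes, which are not independent), so the numbers were not treated as pairs. Over all genes, 1551 lower and 1839 higher calls became 622 and 609 with no filter, and 390 to 1542 lower and 189 to 1693 higher when 1 library was left out, while equal FPKM totals gave 3411 higher. Ltb turned to 0.035 with equal FPKM totals and ranged from -0.30 to 0.062 (without WT replicate 1) when 1 library was left out. Tnfsf8 turned to 0.13 with equal FPKM totals and ranged from -0.12 to 0.088 (without WT replicate 2), with 0.019 without HPK1-/- replicate 1, when 1 library was left out. The cause was not tested. Relative to the shifted median, equal totals gave -0.86 for Tnfsf11, -0.77 for Tnfsf14, -0.67 for Fasl, -0.45 for Tnfsf9 and -0.34 for Tnf. Taking off the median largely undoes the scaling, so these values are no separate check. A filter at 5 FPKM left Cd40lg and Tnfsf10 without a value. Of the other settings run on single ligands, 87 values kept their direction and side of the threshold, 24 lost the call, 2 gained it and 5 turned. All 24 losses fell among the 5 called ligands, since the others had no call to lose. Where an arm was left with 1 library, that library was assumed to vary like the others.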

Other observations

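Set against the mean FPKM of Cd3d, Cd3e and Cd3g in the same library, Tnf came to 17.5% and 19.3% in HPK1-/- libraries and to 19.4% and 20.1% in WT libraries. Fasl came to 11.5% and 11.4% in HPK1-/- libraries and to 13.8% and 17.7% in WT libraries. Tnfsf11 came to 2.03% and 2.31% in HPK1-/- libraries and to 3.82% and 3.36% in WT libraries. These shares are unchanged by any single scaling factor per library, were chosen after the values were seen, and were not tested; Cd3d itself was called lower in HPK1-/- libraries.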
